A study of Mus musculus with 31 samples.

Results

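The interferon-inducible GTPases of the mouse are enzymes that cells make in quantity after exposure to interferon gamma, a cytokine of T cells and natural killer cells. They assemble on the membranes of vacuoles that hold intracellular microbes and help to break them open. The interferon gamma receptor works through the kinases Jak1 and Jak2. Its signal reaches GAS elements in promoters, one of them in Irf1, and Irf1 in turn binds interferon-stimulated response elements (ISREs) in many other genes. In alopecia areata, T cells attack the hair follicle, and interferon gamma is part of that attack.

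The 10 genes described here are 5 guanylate-binding protein genes (Gbp2, Gbp3, Gbp6, Gbp7 and Gbp8), 3 immunity-related GTPase genes (Iigp1, Irgm1 and Igtp), the transcription factor gene Irf1 and Ubd, which encodes the ubiquitin-like protein FAT10. They were chosen by name, with earlier results of these data known. Each was represented by the probe set of highest mean among those that the platform table assigns to that gene alone. They are 10 of the 18193 genes measured this way. Of 14 such probe sets, 10 were used, and the other 4 were second probe sets of Gbp2, Gbp6, Gbp7 and Iigp1.

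Skin of C3H/HeJ mice was profiled on 31 Affymetrix arrays, in a study whose title names established disease, abbreviated AA and read here as alopecia areata, and inhibitors of Janus kinases given on the skin. The 3 arms were PBS, jak1i and jak3i, and each had 3 arrays at 0, 6 and 12 weeks of treatment. Each inhibitor arm had another 2 arrays at 24 weeks, for which no PBS arrays were used here. The inhibitors are known only by these codes, and no dose, age or sex is given in the sources used here. All groups share the strain, the tissue and the disease named in the title, so no healthy skin entered any comparison. The replicates are called biological in the series text, and whether a mouse was sampled more than once is not stated. The p-values set each difference against the spread between arrays within groups. Whether that is a spread between mice is therefore not known. Values are log2 RMA values, and a difference of 1 on this scale is a doubling.

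Several marker lists differed between the same groups, and these values stand here once for all results below. A summed value is the log2 of the added signals of a list. A marker mean is the mean of the log2 values of its genes and lies lower. Summed cytotoxic T and natural killer cell markers (12 genes) lay between 9.4 and 10.49 in inhibitor skin at 6 and 12 weeks, and between 11.35 and 13.12 in all arrays at 0 weeks and of PBS. Between 9 and 12 of these markers were lower than in PBS in each of the 4 inhibitor comparisons. Summed hair shaft markers were between 9.45 and 11.73 in inhibitor skin at 12 weeks, against 13.95 to 15.68 in PBS, and 2 (jak1i) and 5 (jak3i) of 11 were called lower. At 6 weeks 0 of 11 hair markers were called with either inhibitor, and on 2 of the 6 inhibitor arrays the marker mean (12.26 and 12.83) lay above that of every PBS array (9.62 to 11.46). The marker mean in PBS at 12 weeks ran from 10.19 to 11.87. Summed skeletal muscle markers stood apart in PBS at 12 weeks, at 9.43 to 12.79 against 14.94 to 16.9 in the other 10 groups, and 12 of 12 were called higher in each inhibitor arm against it. Summed basal and suprabasal keratinocyte markers, which define skin, were high throughout, between 15.44 and 16.36. Markers of stressed keratinocytes had medians between -3.50 and -1.77 in the 4 comparisons, with 1, 2, 4 and 2 of 6 lower. Of 7 endothelial markers 0, 0, 0 and 7 were higher (jak1i and jak3i at 6 weeks, then at 12 weeks), with medians of 0.71, 0.88, 0.82 and 1.47. Of 6 fat cell markers 0, 4, 1 and 1 were higher, with medians of 1.94, 2.49, 1.5 and 1.53. In the pooled comparison described below, 7 of 7 and 6 of 6 were higher (medians 0.98 and 1.84). Summed macrophage markers overlapped, from 11.93 to 13.26 in inhibitor skin at 6 and 12 weeks and from 11.55 to 13.64 in PBS then. Summed fibroblast markers overlapped too, from 14.92 to 15.76 in inhibitor skin and from 13.53 to 15.66 in PBS at these times. In bulk tissue, fewer cells of a type and less RNA per cell cannot be told apart.

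Promoter sequences are shown first, because GAS and ISRE letters mark the kinds of site through which interferon is known to act on such genes. The RefSeq promoter table (build GRCm38.p6), which gives 300 bases around each start site, matched 7 of the 10 genes: Gbp2, Gbp3, Gbp7, Irgm1, Igtp, Irf1 and Ubd. Gbp6, Gbp8 and Iigp1 are named only. Each line shows 100 bases, 5′ to 3′ on the strand of the gene, with the ISRE core (GAAANNGAAA, or TTTCNNTTTC on the other strand) and the GAS palindrome (TTCNNNGAA) in capitals.
Gbp2: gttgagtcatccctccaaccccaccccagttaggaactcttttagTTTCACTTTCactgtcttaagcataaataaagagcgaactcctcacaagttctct
Gbp3: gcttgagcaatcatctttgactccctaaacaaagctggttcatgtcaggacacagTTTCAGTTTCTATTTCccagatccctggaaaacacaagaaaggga
Gbp7: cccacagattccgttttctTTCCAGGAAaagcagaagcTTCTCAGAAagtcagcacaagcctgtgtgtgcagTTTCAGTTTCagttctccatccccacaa
Irgm1: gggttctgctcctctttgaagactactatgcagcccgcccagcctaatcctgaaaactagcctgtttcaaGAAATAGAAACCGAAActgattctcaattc
Igtp: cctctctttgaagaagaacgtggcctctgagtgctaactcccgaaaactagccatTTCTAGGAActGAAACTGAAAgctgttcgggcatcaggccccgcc
Irf1: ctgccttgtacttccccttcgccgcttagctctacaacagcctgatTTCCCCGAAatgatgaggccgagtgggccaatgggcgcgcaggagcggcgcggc

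The stretch of Gbp2 is chr3:142620559-142620658 on the plus strand, that of Gbp3 chr3:142559944-142560043 and that of Gbp7 chr3:142530211-142530310, both also on the plus strand. Irgm1 is shown from chr11:48871421-48871520 on the minus strand, Igtp from chr11:58199456-58199555 and Irf1 from chr11:53769878-53769977, both on the plus strand. The ISRE core was present in 5 of the 7 genes (Gbp2, Gbp3, Gbp7, Irgm1 and Igtp), against 3.99% of all 27025 genes with such windows (3.44% of 32851 windows). In Gbp3 and in Irgm1 a pair of overlapping matches runs together as 1 block of capitals. The GAS palindrome was present in 3 of the 7 (Gbp7, with 2 matches, Igtp and Irf1), against 9.55% of all genes (8.3% of windows). Igtp carried both within a few bases, at positions -45 and -34 from the start site. Irf1 carried the GAS letters alone, and the Ubd window held neither motif. A match is a description of letters and not evidence of binding in this skin.

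Before treatment the group means of the 10 genes lay between 10.17 and 13.11 in the 3 arms. No member differed between an inhibitor arm and PBS at 0 weeks, where 0% of all 18193 genes were called at a Benjamini-Hochberg adjusted p under 0.05 in limma. The member differences at 0 weeks ran from -0.01 to 0.48 for jak1i and from -0.29 to 0.43 for jak3i. Without overlap, 2 members (Gbp2 and Irf1) lay above PBS in jak1i and 1 (Gbp7) in jak3i, as did 7.72% and 8.78% of all genes.

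In PBS skin no change in the 10 genes was called over 12 weeks. Irf1 read 10.95, 10.83 and 10.94 at 0 weeks, 10.81, 11.15 and 11.65 at 6 weeks, and 11.22, 11.02 and 11.71 at 12 weeks. Ubd read 11.84, 11.72 and 11.44 at 0 weeks, 10.52, 11.42 and 11.21 at 6 weeks, and 11.39, 10.96 and 12.22 at 12 weeks. All 3 Ubd readings at 6 weeks lay just below those at 0 weeks (difference -0.62), and all 3 of Irf1 at 12 weeks just above (difference 0.41). No other member was free of overlap in these directions, in which 8.26% and 15.7% of all genes were. Of the 10 members, 0 were called at 6 weeks against 0 weeks and 0 at 12 weeks against 0 weeks by limma, and 0 had an unadjusted p under 0.05 in either. Over all genes 0.0055% (6 weeks) and 2.28% (12 weeks) were called. The median member difference was 0.04 at 6 weeks and 0.02 at 12 weeks.

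**Figure D1:**
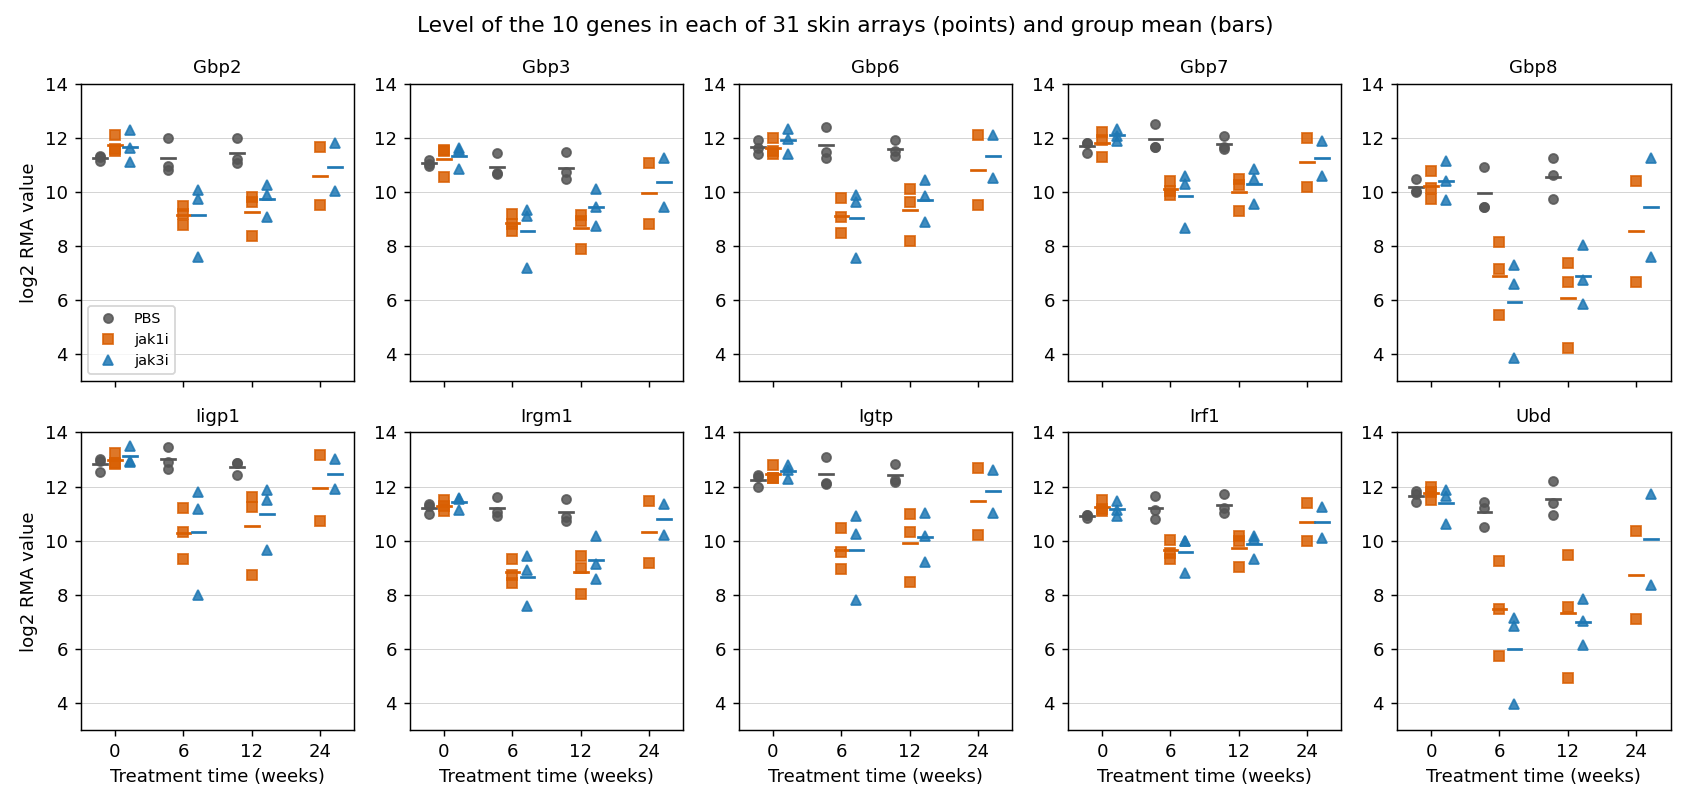
Log2 RMA value of each gene (vertical axis) by treatment time in weeks (horizontal axis), with 1 point per array and a bar at each group mean; circles are PBS, squares jak1i and triangles jak3i. At 6 and 12 weeks all 12 inhibitor arrays lie below every PBS array and every array at 0 weeks in each panel, and the arrays at 24 weeks are split.

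By 6 weeks the genes were lower in inhibitor skin, with 3 members past the test for jak1i and 8 for jak3i. Against PBS at 6 weeks, 3 of 10 members fell with jak1i (Gbp6, Irgm1 and Irf1), where 1.22% of all genes were called lower, and 8 of 10 fell with jak3i (all but Gbp2 and Iigp1), where 1.5% were. The median difference over the 10 was -2.49 with jak1i and -2.62 with jak3i, against 0.04 and 0.02 over all genes. In both comparisons the inhibitor arrays of all 10 members lay below the PBS arrays without overlap, which 8.79% (jak1i) and 7.93% (jak3i) of all genes did in this direction. With 3 arrays a group the jak1i count was unsteady: it was 0 without jak1i replicate 1 or 3 or without PBS replicate 2 or 3, and 5 without jak1i replicate 2 or PBS replicate 1. The jak3i count was 2 without jak3i replicate 1, 1 without PBS replicate 2 and 0 without PBS replicate 3. Fitted on the compared groups alone, both counts were 0, with the same medians. There 20 (jak1i) and 39 (jak3i) of all genes were called in either direction, against 248 and 353 in the fit of all groups.

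At 12 weeks, 9 of 10 members were lower in jak1i than in PBS (all but Iigp1), where 6.51% of all genes were called lower, and 7 of 10 were lower in jak3i (all but Gbp2, Gbp3 and Iigp1), where 7.28% were. The median difference was -2.23 with jak1i and -1.74 with jak3i, against -0.03 over all genes in both. Again the groups of all 10 did not overlap, as was true of 18.9% and 19.7% of all genes in this direction. The jak1i count was 0 without jak1i replicate 3 and 0 without PBS replicate 3. For jak3i the count was 0 without jak3i replicate 1, 2 without its replicate 2, 4 without PBS replicate 1 and 1 without PBS replicate 3. PBS at 12 weeks is also the group with low muscle markers. With PBS at 6 weeks as the control, 0 members were called for jak1i (median -2.39) and 2 for jak3i (median -1.96). Of all 18193 genes, 15 and 419 were called in either direction there, against 2431 and 3148 with PBS at 12 weeks. Both counts at 12 weeks were 0 with the mean of the hair shaft markers as a covariate (medians -1.95 and -1.44), where 319 and 135 of all genes were called. Both were also 0 with that of the muscle markers (medians -2.73 and -2.29), where 0 of all genes were called. Muscle markers set PBS at 12 weeks apart from the other groups, so this covariate and the comparison are hard to separate.

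Because each of these comparisons rests on 3 arrays a side, both inhibitors and both times were also pooled against PBS, a comparison added after the data were seen. All 10 members were lower, with a median of -2.28, and adjusted p-values from limma ran from 5.8e-05 (Irgm1) to 0.00161 (Iigp1). Like the other pooled comparisons, it takes arrays of different weeks as separate samples. Whether they came from different mice is not stated. In that comparison 14.4% of all genes were called lower, and 1.51% had no overlap in the lower direction, as all 10 members did. The count stayed at 10 with any 1 of its 18 arrays left out. It was 10 with the mean of the hair shaft markers as a covariate (median -2.02), and 0 with that of the muscle markers (median -2.60), where 0 of all 18193 genes were called. What part the cell types behind the cytotoxic, hair, muscle, keratinocyte, endothelial and fat markers have in the falls was not tested.

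**Figure D2:**
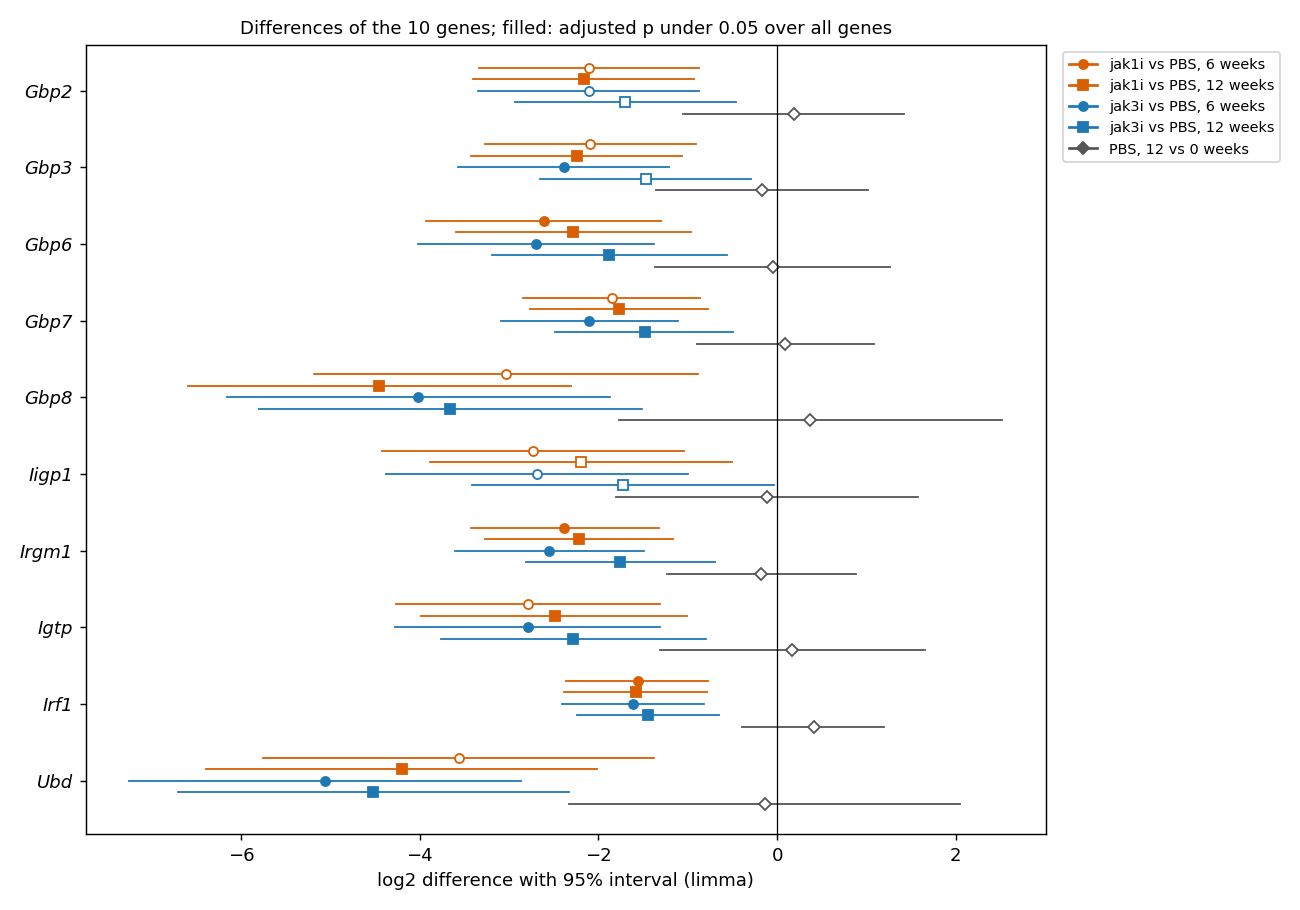
Log2 difference of each gene (horizontal axis, with 95% intervals from limma) in 5 comparisons; filled symbols have an adjusted p under 0.05 over all genes. All inhibitor differences lie below 0, with Ubd and Gbp8 farthest from it, and the PBS differences of 12 against 0 weeks (grey) lie around it.

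Ubd marks proteins for destruction by the proteasome and had the widest range of the 10, 8.25 on the log2 scale. In jak1i skin it read 5.73, 9.26 and 7.47 at 6 weeks and 7.55, 9.49 and 4.92 at 12 weeks. In jak3i skin it read 3.97, 6.86 and 7.15 at 6 weeks and 6.16, 7.03 and 7.84 at 12 weeks. Each of these 12 values lies below the lowest untreated reading, 10.52, and the jak1i values scatter more widely at 12 weeks than those of jak3i (SD 2.29 and 0.84, n = 3). Against PBS Ubd fell 33.3-fold with jak3i at 6 weeks (log2 difference -5.06, adjusted p = 0.0138 in limma), 18.4-fold with jak1i at 12 weeks (-4.20, adjusted p = 0.0138) and 22.9-fold with jak3i at 12 weeks (-4.52, adjusted p = 0.00883), with an SE of 1.06 each. The jak3i mean at 6 weeks, 5.99, lay under 6.18, the median of all values in the table, which gives no detection calls. Readings that low may be background, so the fold is that of the RMA values and not a measured ratio of transcripts. The other differences carry this limit too, through single readings of 5.73 (jak1i, 6 weeks), 4.92 (jak1i, 12 weeks) and 6.16 (jak3i, 12 weeks). With jak1i at 6 weeks the difference was -3.56 (SE 1.06), with an adjusted p of 0.0956.

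Gbp8 was the guanylate-binding protein gene with the largest differences. In PBS skin it read 9.45, 9.46 and 10.92 at 6 weeks and 9.73, 10.64 and 11.25 at 12 weeks. With jak1i the readings were 5.44, 8.14 and 7.16 at 6 weeks and 6.66, 7.37 and 4.24 at 12 weeks, and with jak3i 3.87, 6.61 and 7.3 at 6 weeks and 5.86, 6.75 and 8.04 at 12 weeks. The gap between the highest inhibitor array and the lowest untreated array was 1.31, the widest of the 10. It fell 16.2-fold with jak3i at 6 weeks (log2 difference -4.02, SE 1.04, adjusted p = 0.046 in limma), 21.9-fold with jak1i at 12 weeks (-4.45, SE 1.04, adjusted p = 0.0091) and 12.6-fold with jak3i at 12 weeks (-3.66, SE 1.04, adjusted p = 0.0213). With jak1i at 6 weeks the difference was -3.03, and its adjusted p of 0.144 did not pass the test. The means of 5.93 (jak3i, 6 weeks) and 6.09 (jak1i, 12 weeks) lay under the same median of 6.18, so these folds carry the same limit. Single readings under it also enter the other differences, 5.44 with jak1i at 6 weeks and 5.86 with jak3i at 12 weeks. A further probe set, which the platform table assigns to Gbp8 and Gbp4 together, stayed between 5.08 and 5.62 on all arrays and was not used.

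The other guanylate-binding proteins differed less. Gbp6 read 11.27, 11.48 and 12.41 in PBS at 6 weeks, 8.47, 9.76 and 9.09 with jak1i, and 7.56, 9.64 and 9.87 with jak3i. At 12 weeks it read 11.31, 11.53 and 11.93 in PBS, 9.63, 10.12 and 8.2 with jak1i, and 8.89, 9.84 and 10.43 with jak3i. It was lower in all 4 comparisons, 6.11-fold and 6.5-fold at 6 weeks (adjusted p = 0.0411 and 0.0285 in limma) and 4.84-fold and 3.67-fold at 12 weeks (adjusted p = 0.022 and 0.0453), jak1i first. With the replicate number as a block, the last of these had an adjusted p of 0.0565 in limma. Whether the numbers mark a shared mouse or batch is not stated. The second probe set of Gbp6 was also lower at 6 weeks (-3.08 and -3.20, adjusted p = 0.0452 and 0.0318 in limma), but its differences at 12 weeks, -1.84 and -1.65, were not called (adjusted p = 0.0987 and 0.124).

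Gbp2, Gbp3 and Gbp7 lie in 1 cluster on chromosome 3 and are close relatives, so cross-hybridisation between them cannot be told apart from separate expression. Gbp6 and Gbp8 lie near Gbp4, Gbp9 and Gbp10 on chromosome 5, which are not among the genes measured here. Cross-hybridisation was not tested for Gbp6 and Gbp8 either. Gbp2, whose probe set carries the suffix of probes shared with other transcripts, spanned 7.61 to 10.26 over the 12 inhibitor arrays (median 9.55) and 10.82 to 12.29 over the 15 untreated ones (median 11.33). Gbp3 spanned 7.2 to 10.09 (median 9.02) and 10.49 to 11.61 (median 11.05), the narrowest gap of the 10 at 0.40. Gbp7 spanned 8.68 to 10.83 (median 10.27) and 11.3 to 12.52 (median 11.81). All 3 were thus separated between the sets of arrays by less than Gbp8. Gbp7 fell in 3 of the 4 comparisons, Gbp3 in 2 and Gbp2 in 1, and the differences that were not called lay between -2.11 and -1.47. The second probe set of Gbp2 differed from the first by at most 0.16 in the 4 comparisons and that of Gbp7 by at most 0.32. The second probe set of Gbp7 was lower with jak3i at 6 weeks (adjusted p = 0.0396 over all probe sets in limma) and not called in the other 3. That of Gbp2 was called at 12 weeks with both inhibitors (adjusted p = 0.0242 and 0.0498).

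Among the immunity-related GTPases, Irgm1 and Igtp regulate the family and Iigp1 is an effector that coats the vacuole. Irgm1 read 11.06, 10.92 and 11.62 in PBS at 6 weeks, 8.44, 9.31 and 8.73 with jak1i, and 7.6, 8.93 and 9.43 with jak3i. At 12 weeks it read 10.74, 10.87 and 11.53 in PBS, 9, 9.44 and 8.05 with jak1i, and 8.57, 9.14 and 10.16 with jak3i. It fell in all 4 comparisons, with the smallest adjusted p of the 10 members in 3 of them. The falls were 5.2-fold and 5.85-fold at 6 weeks (adjusted p = 0.0227 and 0.00997 in limma) and 4.66-fold and 3.38-fold at 12 weeks (adjusted p = 0.00835 and 0.0232), jak1i first.

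Igtp spanned 7.82 to 11.03 over the 12 inhibitor arrays (median 10.21) and 12 to 13.1 over the 15 untreated ones (median 12.31). It fell in 3 comparisons, with log2 differences of -2.79 for jak3i at 6 weeks, -2.49 for jak1i at 12 weeks and -2.28 for jak3i at 12 weeks (SE 0.72 each, adjusted p = 0.0445, 0.025 and 0.0329 in limma). With jak1i at 6 weeks its difference was -2.79, with an adjusted p of 0.0521. Iigp1 was the only member called in none of the 4. It read 9.32, 11.2 and 10.33 with jak1i and 7.99, 11.18 and 11.79 with jak3i at 6 weeks, against 12.92, 12.64 and 13.47 in PBS. At 12 weeks it read 11.25, 11.62 and 8.73 with jak1i and 9.65, 11.49 and 11.86 with jak3i, against 12.43, 12.88 and 12.87 in PBS. The groups did not overlap, yet single low arrays made its spread large (SD 2.04 with jak3i at 6 weeks and 1.57 with jak1i at 12 weeks). Its differences were -2.73, -2.69, -2.19 and -1.72 (SE 0.82), with adjusted p between 0.0747 and 0.141. Its second probe set gave -2.39 for jak1i at 12 weeks, with an adjusted p of 0.0455, and was not called in the other 3 (adjusted p = 0.0722, 0.0761 and 0.108).

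Irf1, the transcription factor among the members, showed the smallest differences and the smallest spread within groups (SD 0.49). In jak1i skin it read 9.33, 10.03 and 9.56 at 6 weeks and 9.99, 10.16 and 9.04 at 12 weeks. In jak3i skin it read 8.8, 9.98 and 9.99 at 6 weeks and 9.34, 10.08 and 10.18 at 12 weeks. All of these lie below its lowest untreated value, 10.81. It fell in all 4 comparisons, 2.96-fold and 3.06-fold at 6 weeks (adjusted p = 0.0425 and 0.0302 in limma) and 3-fold and 2.73-fold at 12 weeks (adjusted p = 0.0115 and 0.0158), jak1i first.

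Measured against the start of each arm, more members were called. In jak1i skin 10 of 10 fell by 6 weeks (median -2.56) and 10 of 10 by 12 weeks (median -2.46), where 6.43% and 6.5% of all genes were called lower. The groups of all 10 did not overlap at either time, as held for 13% and 19.7% of all genes in this direction. In jak3i skin 9 of 10 fell by 6 weeks (all but Iigp1, adjusted p = 0.0571 in limma, median -2.79) and 9 of 10 by 12 weeks (all but Iigp1, adjusted p = 0.0854, median -2.12), where 2.05% and 2.85% were called lower. All 10 were again free of overlap at both times, against 9.64% and 17.4% of all genes. Single arrays moved these counts too. In jak1i the 6-week count was 1 without replicate 1 at 6 weeks and 6 without replicate 3 at 6 weeks or replicate 1 at 0 weeks. The 12-week count was 2 without replicate 3 at 12 weeks and 6 without replicate 3 at 0 weeks. In jak3i the 6-week count was 3 without replicate 1 and 1 without replicate 2 at 0 weeks, and the 12-week count was 0 without replicate 1 or 2 at either time. Fitted with the compared groups alone, the jak3i count at 6 weeks was 0, where 59 of all genes were called, against 573 in the fit of all groups.

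The change in each inhibitor arm minus the change in PBS was tested as an interaction. In jak1i from 0 to 12 weeks, Irf1 fell by 1.93 more than in PBS (SE 0.54, adjusted p = 0.0362 in limma), and the other 9 members were not called, where 3.86% of all genes were called lower. The remaining 3 interactions called 0 members, with 0.121% (jak1i, 6 weeks), 0.0055% (jak3i, 6 weeks) and 4.55% (jak3i, 12 weeks) of all genes called. Their medians were -2.59, -2.85 and -2.06, and 10, 10 and 9 of the 10 members had an unadjusted p under 0.05. The call of Irf1 was lost without any 1 of 8 of the 12 arrays. Fitted on the compared groups alone, the interactions called 6 (jak1i, 6 weeks), 9 (jak1i, 12 weeks) and 9 (jak3i, 12 weeks) members, all lower. There 118, 2239 and 1894 of all genes were called in either direction, against 22, 1247 and 827 in the fit of all groups. Pooled over inhibitors and times, a comparison added after the data were seen, the interaction called 9 members (median -2.48, with 6.87% of all genes called lower), all but Iigp1 (adjusted p = 0.0571). That count was 3, 5 and 4 without PBS replicate 1, 2 or 3 at 0 weeks.

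**Figure D3:**
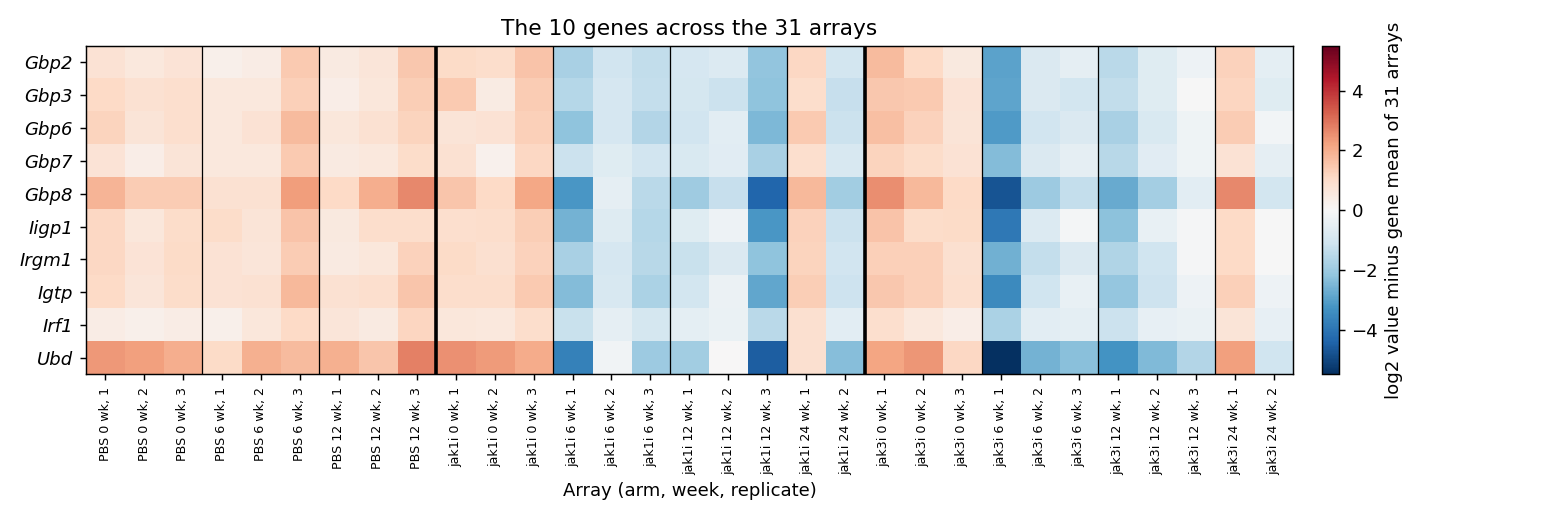
Log2 value of each gene (rows) on each array (columns, by arm, week and replicate) minus the gene's mean over the 31 arrays; red is higher and blue lower. Replicate 1 of jak3i at 6 weeks and replicate 3 of jak1i at 12 weeks are the darkest blue columns in all 10 rows, and at 24 weeks replicate 1 of each inhibitor is red and replicate 2 blue or pale.

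The 2 inhibitors were compared with each other at 3 matched times, and no member was called at any of them, where 0% of all genes were. Adjusted p-values over all genes ran from 0.973 to 1. The differences of jak1i minus jak3i ran from -0.04 to 1.49 at 6 weeks, from -0.79 to 0.31 at 12 weeks and from -1.31 to 0.01 at 24 weeks. Their 95% intervals reached from -1.73 to 3.68, from -2.94 to 2.5 and from -3.99 to 1.75, so differences of several fold in either direction are within them. Doses are not given, and a p that misses the threshold does not show that the inhibitors act alike.

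The separation seen in each comparison also held across arms, a description made after the values were seen. In all 10 members the 12 inhibitor arrays at 6 and 12 weeks lay below all 15 arrays at 0 weeks and of PBS. Over all genes 165 of 18193 (0.907%) did so. Among the inhibitor arrays the order was shared: replicate 1 of jak3i at 6 weeks was the lowest and replicate 3 of jak1i at 12 weeks the second lowest array in all 10 members. The mean of the 10 genes relative to their mean over all arrays was -3.34 and -2.73 on these arrays and between -2.17 and -0.38 on the other 10. The lowest of them, replicate 1 of jak3i at 6 weeks, had the highest hair shaft marker mean of all arrays, 12.83, while its cytotoxic marker mean was 5.7. Cytotoxic marker means ran from 5.48 to 6.67 on the inhibitor arrays at 6 and 12 weeks. On the arrays at 0 weeks and of PBS they ran from 7.33 to 8.87.

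**Figure D4:**
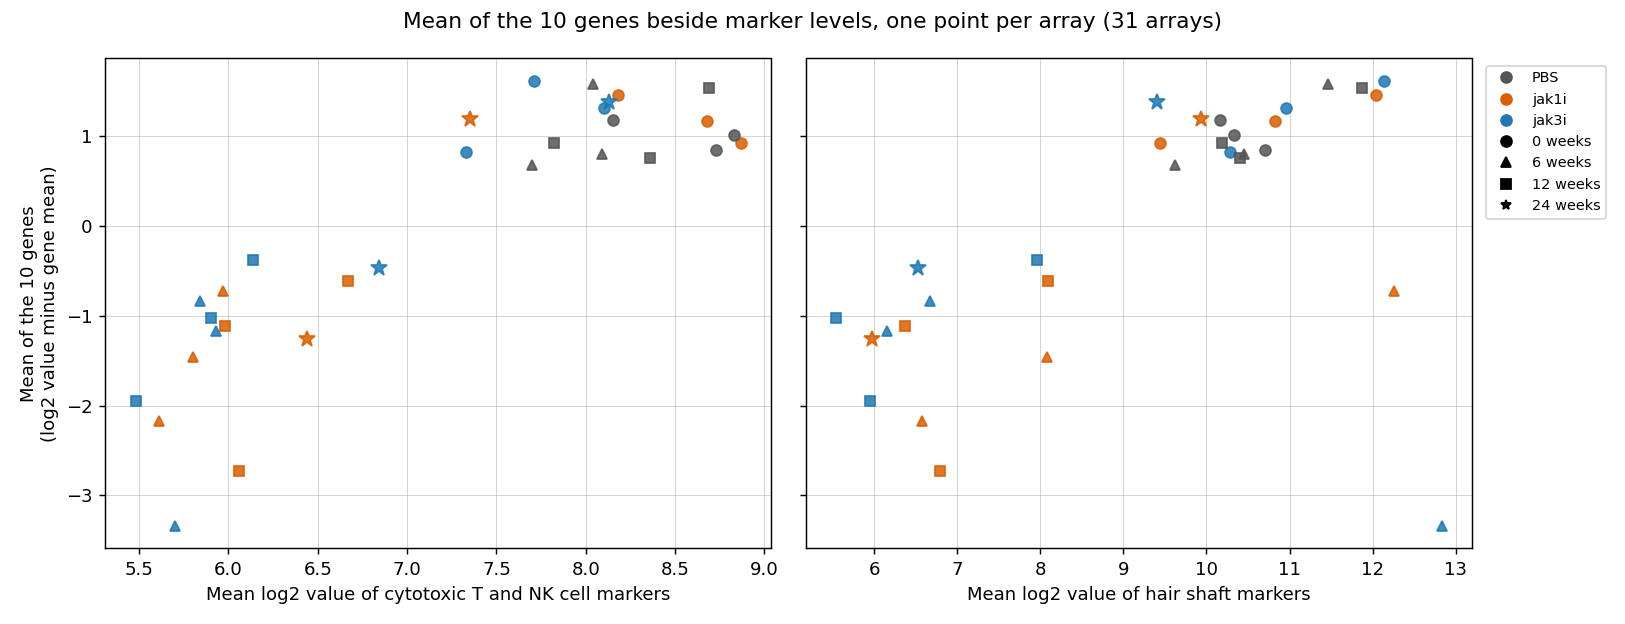
Mean of the 10 genes on each array (vertical axis, log2 value minus gene mean) against the mean log2 value of cytotoxic T and natural killer cell markers (left) and of hair shaft markers (right); colour gives the arm and shape the week. Untreated arrays lie upper right in the left panel, and in the right panel 2 inhibitor arrays at 6 weeks (12.26 and 12.83) combine high hair markers with low values of the 10 genes.

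At 24 weeks each inhibitor arm had 2 arrays, and they disagreed. Ubd read 10.35 and 7.12 with jak1i and 11.73 and 8.36 with jak3i. Gbp8 read 10.42 and 6.69 with jak1i and 11.26 and 7.6 with jak3i. Irf1 read 11.41 and 9.98 with jak1i and 11.26 and 10.11 with jak3i. Replicate 1 of jak3i was in the untreated range in 9 of 10 members and above it in Gbp8 (11.26 against at most 11.25). Replicate 1 of jak1i was in that range in 9, with Ubd between the ranges. Replicate 2 of jak1i was in the inhibitor range in 10 of 10 and replicate 2 of jak3i in 6, with Gbp6, Iigp1, Irgm1 and Igtp between. The cytotoxic marker mean was 7.35 and 6.44 on the jak1i arrays and 8.13 and 6.84 on those of jak3i, replicate 1 first, so it too was higher on replicate 1 of each. The same held for the stressed keratinocyte mean (12.23 and 8.4 with jak1i, 10.98 and 8.42 with jak3i) and the hair shaft mean (9.93 and 5.98, 9.4 and 6.53). It held for the macrophage mean too (8.79 and 8.26, 9.19 and 8.24). The endothelial mean was lower on replicate 1 of each (7.09 and 7.9, 6.95 and 7.72). The remaining lists did not keep the same order in both arms. The part of these cells in the difference was not tested.

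By limma, 0 members were called at 24 weeks against 12 weeks in either arm, where 0% (jak1i) and 0.033% (jak3i) of all genes were called, and 4 and 5 members had an unadjusted p under 0.05. The medians were 1.42 and 1.48, and the groups of 5 members did not overlap in jak3i, against 16.7% of all genes in this direction. Against 0 weeks, 0 were called as well, with medians of -1.02 and -0.75, where 1.19% and 0.11% of all genes were called and 1 and 0 members had an unadjusted p under 0.05. In each arm 1 member lay below its 0-week arrays without overlap, Ubd in jak1i and Gbp7 in jak3i, as did 16.5% and 11.8% of all genes. Pooling both inhibitors at 24 weeks against 6 and 12 weeks, added after the data were seen, 2 members rose, Irgm1 (1.66, SE 0.36, adjusted p = 0.0197) and Gbp6 (1.77, SE 0.45, adjusted p = 0.0489), where 1.23% of all genes were called higher. That count was 8 without jak1i replicate 2 and 7 without jak3i replicate 2 at 24 weeks, and 0 without replicate 1 of either. It was 1 without any of 7 of the 12 arrays at 6 and 12 weeks, and 3 without jak3i replicate 3 at 6 weeks. The pooled comparison of 24 with 0 weeks called 0 members (median -0.86), where 15.6% of all genes were called, but 5 without jak1i replicate 1 and 2 without jak3i replicate 1 at 24 weeks.

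The 10 genes moved closely together. Over the 31 arrays the 45 pairs of members had Pearson r between 0.922 and 0.993 (median 0.974), and between 0.827 and 0.983 (median 0.941) after the group means were removed. The arrays share their groups and the RMA scaling, so these values are descriptions. The genes most like the mean of the 10 outside the set were Gbp2b (r = 0.991), Ifi47 (0.989), Cxcl9 (0.975), Irgm2 (0.974), Dtx3l (0.971), Psmb9 (0.968), Psmb10 (0.968) and Parp14 (0.968), each over 31 arrays. Gbp2b, Ifi47 and Irgm2 encode further GTPases of these families, Cxcl9 a chemokine that draws T cells, and Psmb9 and Psmb10 subunits of the immunoproteasome. Gbp2b lies between Gbp3 and Gbp2 on chromosome 3, and Irgm2 beside Igtp on chromosome 11.

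Upstream of these genes, the mean of Ifng was 6.83 ± 1.03 in PBS at 6 weeks and 7.41 ± 0.52 at 12 weeks (SD, n = 3), and 4.52 ± 0.45 and 4.31 ± 0.18 with jak1i. With jak3i it was 4.46 ± 0.35 and 4.34 ± 0.61, and the ranges did not overlap with those of PBS, although inhibitor readings this low may be background. Ifng fell in 3 of the 4 comparisons (adjusted p = 0.0431, 0.00342 and 0.00318 in limma) and differed by -2.31 with jak1i at 6 weeks (adjusted p = 0.0559). The receptor gene Ifngr1 and the kinase genes Jak1 and Jak2 were called in none of the 4, with differences between 0.12 and 0.61, between -0.05 and 0.10, and between -0.46 and -0.29. Ifngr2 fell by 0.68 with jak3i at 6 weeks (adjusted p = 0.0269) and was not called in the other 3.

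Of 14 interferon gamma signalling genes analysed here, 4, 7, 6 and 5 fell in the 4 comparisons (jak1i and jak3i at 6 weeks, then jak1i and jak3i at 12 weeks), with medians of -0.98, -1.11, -0.82 and -0.85 and 0 higher. Stat2, a transcription factor of the interferon alpha response, fell in all 4 (-1.90 to -1.55). Of 5 other interferon-inducible GTPases analysed here, 2, 2, 4 and 2 fell, with medians between -2.50 and -1.66. Mx1, an antiviral GTPase driven mainly by type I interferon, fell in 3 and differed by -1.43 with jak3i at 12 weeks (adjusted p = 0.0795 in limma).

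The 4 T cell chemokines of the list, Cxcl9, Cxcl10, Cxcl11 and Ccl5, had medians of -3.94, -5.09, -3.98 and -4.06, and 2, 4, 4 and 4 fell. Of 9 measured genes of class I peptide processing 6, 6, 8 and 8 fell, with medians of -1.33, -1.50, -1.27 and -1.10. Tap2, a subunit of the peptide transporter, fell in all 4 (-1.62 to -1.26). In the ubiquitin-like list, to which Ubd is related, 3, 3, 4 and 3 of 6 fell, with Usp18, the enzyme that removes Isg15, lower in all 4 comparisons (-2.28 to -1.60).

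Autophagy and partner genes, through which the GTPases are loaded onto vacuoles or act, showed few changes. Of 11 measured genes 0 were called at 6 weeks with either inhibitor, and the medians over the 4 comparisons lay between -0.12 and 0.06. At 12 weeks Map1lc3b, an autophagosome protein gene, was higher with both inhibitors (0.54 and 0.55, adjusted p = 0.0206 and 0.0176 in limma). The 1 gene called lower, Aim2 with jak1i, read between 3.35 and 4.67 on all arrays, and no change in expression is read from it. Gzmb, a granzyme of cytotoxic cells, fell in all 4 comparisons (log2 differences from -4.82 to -4.02), from a mean of 9.56 ± 0.67 in PBS at 6 weeks to 4.88 ± 0.12 with jak1i and 4.73 ± 0.02 with jak3i (SD, n = 3), levels that may likewise be background.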

How the data were processed

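Total RNA of mouse skin was measured on 3′ expression arrays. The deposited table holds log2 values that the authors made with RMA, as named in the submitters' processing notes without a version. They run from 2.59 to 14.69, with array medians of 6.05 to 6.24. Of 45101 probe sets, 34958 had 1 gene symbol, 932 several and 9211 none in the platform table. After array controls were left out, 34945 probe sets covered 18193 genes, and the probe set of highest mean stood for each gene.

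One linear model of 11 group means was fitted with limma 3.58.1 in R 4.3.3 (20 residual and 2.5 prior degrees of freedom), with Benjamini-Hochberg adjustment over all genes within a contrast and a threshold of 0.05. The fit was tested on simulated data. There were 23 planned contrasts, chosen with earlier results of these data known. Another 4 were added after the values here were seen. The number of arrays limits the precision. No batch is named in the sources used here.

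The members, lists and comparisons were chosen with earlier results of these data known. Named outside the members were 8 fixed genes that were measured, the 8 most alike genes, and up to 4 called genes of each list with the largest differences at 12 weeks. Replicate numbers were checked as pairs by the correlation of deviations from group means: every one of 3 pairs exceeded 0.1 only in jak3i against PBS at 12 weeks (0.164, 0.201 and 0.382), where the block is given beside the result it changed. With 19 comparisons checked, these values do not show that the numbers pair the samples. Alternatives were array centring, a filter on dim genes, other probe sets, other variance models, other control or covariates, replicate blocks and leaving out each array.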

Additional observations from a re-analysis of the deposited data

Results flagged for a closer look

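Tests of the change in inhibitor skin against the change in PBS skin (limma, adjusted p under 0.05) called 10 differences among these genes. Irf1 fell by 1.93 more with jak1i from 0 to 12 weeks than in PBS (SE 0.54, adjusted p = 0.0362), where 3.86% of all genes were called lower. That call was lost without any 1 of 8 of the 12 arrays. The other 9 come from the comparison pooled over inhibitors and times, which was added after the data were seen and in which 6.87% of all genes were called lower. Their number was 3, 5 and 4 without PBS replicate 1, 2 or 3 at 0 weeks. There the extra change on the log2 scale was -4.23 for Ubd, -3.93 for Gbp8, -2.86 for Igtp, -2.49 for Gbp6 and -2.47 for Gbp2. It was -2.36 for Irgm1, -2.26 for Gbp3, -2.07 for Gbp7 and -1.85 for Irf1. Adjusted p-values ran from 0.0104 (Irf1) to 0.026 (Gbp8).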

How the results depend on the processing

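Under other settings, 380 of 455 counts of called members stayed within 1.5 times the reported count. That number includes comparisons with 0 members called in the reported fit, where 0 again was scored as unchanged. For jak1i and jak3i against PBS, 21 and 40 of 164 member values each lost a call at 6 weeks. At 12 weeks 51 and 49 of 174 each did. Of 4658 member values, 4148 kept their sign and their side of the threshold, 320 lost a call, 77 gained one and 113 took the opposite sign, of which 0 were called in either fit. With the setting each array centred on its median, the count was 1 instead of 0 for jak3i change 0 to 12 weeks minus PBS change and 1 instead of 2 for both inhibitors, 24 weeks vs 6 and 12 weeks pooled. With the setting dim genes left out, the count was 5 instead of 3 for jak1i vs PBS at 6 weeks and 3 instead of 1 for jak1i change 0 to 12 weeks minus PBS change. With the setting only the compared groups in the fit, the count was 0 instead of 3 for jak1i vs PBS at 6 weeks, 0 instead of 8 for jak3i vs PBS at 6 weeks, 0 instead of 9 for jak3i 6 vs 0 weeks, 6 instead of 0 for jak1i change 0 to 6 weeks minus PBS change, 9 instead of 1 for jak1i change 0 to 12 weeks minus PBS change, 9 instead of 0 for jak3i change 0 to 12 weeks minus PBS change and 0 instead of 2 for both inhibitors, 24 weeks vs 6 and 12 weeks pooled. Of all genes, 20, 39, 59, 118, 2239, 1894 and 130 were called there, in that order. With the setting replicate block, number as a fixed term, the count was 1 instead of 3 for jak1i vs PBS at 6 weeks and 1 instead of 2 for both inhibitors, 24 weeks vs 6 and 12 weeks pooled. With the setting replicate block, arm and number as a random block, the count was 1 instead of 2 for both inhibitors, 24 weeks vs 6 and 12 weeks pooled. With the setting PBS at 6 weeks as the control, the count was 0 instead of 9 for jak1i vs PBS at 12 weeks and 2 instead of 7 for jak3i vs PBS at 12 weeks. Of all genes, 15 and 419 were called there, instead of 2431 and 3148. With the setting skeletal muscle marker mean as a covariate, the count was 1 instead of 3 for jak1i vs PBS at 6 weeks, 0 instead of 9 for jak1i vs PBS at 12 weeks, 0 instead of 7 for jak3i vs PBS at 12 weeks and 0 instead of 10 for both inhibitors vs PBS, 6 and 12 weeks pooled. Of all genes, 188, 0, 0 and 0 were called there. With the setting hair shaft marker mean as a covariate, the count was 1 instead of 3 for jak1i vs PBS at 6 weeks, 3 instead of 8 for jak3i vs PBS at 6 weeks, 0 instead of 9 for jak1i vs PBS at 12 weeks and 0 instead of 7 for jak3i vs PBS at 12 weeks. Of all genes, 255, 244, 319 and 135 were called there. The sources used here do not say whether replicate numbers pair the samples. In jak3i against PBS at 12 weeks every correlation of same-numbered arrays exceeded 0.1. There the fixed block gave 6 instead of 7, with Gbp6 the only call it changed. The fixed block ended 11 calls of single members and the random block 3, while the latter added 2. The cause of these moves was not tested. With 1 array left out, the count ran from 0 to 5 for jak1i vs PBS at 6 weeks, from 0 to 8 for jak3i vs PBS at 6 weeks, from 0 to 9 for jak1i vs PBS at 12 weeks, from 0 to 7 for jak3i vs PBS at 12 weeks, from 1 to 10 for jak1i 6 vs 0 weeks, from 2 to 10 for jak1i 12 vs 0 weeks, from 1 to 10 for jak3i 6 vs 0 weeks, from 0 to 9 for jak3i 12 vs 0 weeks, from 0 to 2 for jak1i change 0 to 12 weeks minus PBS change, at 10 throughout for both inhibitors vs PBS, 6 and 12 weeks pooled, from 3 to 10 for pooled inhibitor change from 0 weeks minus pooled PBS change, from 0 to 8 for both inhibitors, 24 weeks vs 6 and 12 weeks pooled and from 0 to 5 for both inhibitors, 24 vs 0 weeks pooled. With probe sets averaged within each gene, the uncalled values of opposite sign were 0.01 for Gbp2, PBS 6 vs 0 weeks, -0.02 for Gbp7, PBS 12 vs 0 weeks and 0.05 for Gbp6, jak1i vs PBS at 0 weeks. With the setting other probe set of the gene, tested among all probe sets, the uncalled values of opposite sign were 0.03 for Gbp2, PBS 6 vs 0 weeks, 0.1 for Gbp6, jak1i vs PBS at 0 weeks, -0.14 for Gbp7, PBS 12 vs 0 weeks and -0.04 for Iigp1, jak1i vs PBS at 0 weeks. With the setting other probe set for the members that have one, the uncalled values of opposite sign were 0.03 for Gbp2, PBS 6 vs 0 weeks, -0.14 for Gbp7, PBS 12 vs 0 weeks, 0.1 for Gbp6, jak1i vs PBS at 0 weeks and -0.04 for Iigp1, jak1i vs PBS at 0 weeks. Leaving out 1 array turned the sign of 63 uncalled member differences. For jak1i vs PBS at 0 weeks, these ran from -0.02 to 0.47 for Gbp3, from -0.19 to 0.11 for Gbp6, from -0.03 to 0.22 for Ubd, from -0.07 to 0.4 for Gbp7, from -0.23 to 0.28 for Gbp8 and from -0.04 to 0.17 for Irgm1. For jak1i vs jak3i at 6 weeks, these ran from -1.2 to 0.7 for Iigp1, from -0.76 to 0.47 for Gbp2, from -0.64 to 0.51 for Gbp6, from -0.36 to 0.56 for Irgm1, from -0.91 to 0.63 for Igtp, from -0.35 to 0.25 for Irf1, from -0.37 to 0.69 for Gbp3, from -0.34 to 0.62 for Gbp7 and from -0.04 to 1.73 for Gbp8. For jak1i vs jak3i at 12 weeks, these ran from -0.77 to 1.51 for Ubd, from -0.81 to 0.16 for Gbp6, from -0.64 to 0.08 for Gbp7, from -1.43 to 0.13 for Gbp8, from -1.14 to 0.43 for Iigp1, from -0.75 to 0.52 for Igtp and from -0.4 to 0.21 for Irf1. For jak1i 24 vs 12 weeks, these ran from -0.21 to 3.03 for Ubd. For jak1i vs jak3i at 24 weeks, these ran from -0.7 to 0.72 for Irf1, from -1.39 to 0.76 for Gbp2, from -1.52 to 0.73 for Gbp3, from -1.8 to 0.79 for Gbp6, from -1.05 to 0.78 for Gbp7, from -2.74 to 0.99 for Gbp8, from -1.74 to 0.72 for Iigp1, from -1.6 to 0.69 for Irgm1, from -1.62 to 0.87 for Igtp and from -2.99 to 0.37 for Ubd. For jak1i 24 vs 0 weeks, these ran from -2.12 to 0.47 for Gbp6, from -1.63 to 0.19 for Gbp7, from -3.52 to 0.21 for Gbp8, from -2.26 to 0.19 for Iigp1, from -2.12 to 0.17 for Irgm1, from -2.25 to 0.23 for Igtp and from -1.27 to 0.16 for Irf1. For jak3i vs PBS at 0 weeks, these ran from -0.12 to 0.6 for Gbp8 and from -0.54 to 0.09 for Ubd. For jak3i 24 vs 0 weeks, these ran from -1.65 to 0.14 for Gbp2, from -1.38 to 0.19 for Gbp6, from -2.81 to 0.85 for Gbp8, from -1.53 to 0.05 for Igtp, from -1.06 to 0.1 for Irf1 and from -3.02 to 0.35 for Ubd. For PBS 6 vs 0 weeks, these ran from -0.37 to 0.22 for Gbp2, from -0.23 to 0.12 for Irgm1, from -0.27 to 0.3 for Gbp6, from -0.38 to 0.01 for Gbp3, from -0.71 to 0.02 for Gbp8, from -0.01 to 0.42 for Gbp7, from -0.06 to 0.36 for Iigp1 and from -0.12 to 0.37 for Igtp. For PBS 12 vs 0 weeks, these ran from -0.22 to 0.09 for Gbp6, from -0.06 to 0.19 for Gbp7, from -0.45 to 0.04 for Gbp3, from -0.26 to 0.04 for Iigp1, from -0.49 to 0.14 for Ubd, from -0.1 to 0.37 for Gbp2 and from -0.04 to 0.3 for Igtp. All 10 members passed the filter on dim genes, which asked for only 2 arrays above 6.18, the median of all values. In inhibitor skin 2 group means of Gbp8 (5.93 and 6.09) and 1 of Ubd (5.99) lay under it, and without detection calls signal was not separated from background there. Single readings of both genes lay under it in the other inhibitor groups at 6 and 12 weeks as well.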
